A study of Mus musculus with 4 samples.

Results

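Of the genes of the Wnt signalling pathway, 46 were followed through a map of Eya1 binding in the embryonic mouse kidney, among 21938 protein-coding genes of the GENCODE M21 annotation. They comprised 19 Wnt ligands, 12 receptors (10 Frizzled genes with Lrp5 and Lrp6), 12 intracellular components and 3 secreted modulators, and each of the 46 symbols matched 1 annotated gene. The genes were taken by name, as ligands, receptors and pathway components, and the rule used no peak values. They were, however, chosen with earlier results of these data known, so the counts describe and do not test. A gene was counted as carrying a promoter peak when a deposited Eya1 peak lay within 1 kb of any of its annotated transcription start sites (TSSs), and as carrying a shared peak when a peak of each replicate met that condition and the peaks overlapped each other by at least 1 bp.

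Eya1 is a coactivator with phosphatase activity that nephron progenitors require. Chromatin immunoprecipitation with sequencing (ChIP-seq) was carried out on E13.5 kidneys of Eya1HA-FLAG embryos, a knockin on a mixed C57BL/6J and 129/Sv background in which Eya1 carries HA and FLAG tags, with anti-FLAG beads and 80 kidneys in each assay. The series held 4 samples, namely 2 Eya1 ChIP replicates, 1 input and 1 IgG control, of which the Eya1 replicates each had 1 peak list and the controls were not analysed here. Whole pooled kidneys were used, and the pulldown was of tagged Eya1, which the paper describes in nephron progenitors. The peaks therefore concern cells that hold Eya1 and not all kidney cells alike. The lists themselves do not separate cell types.

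Wnt ligands are secreted lipid-modified proteins that bind Frizzled receptors and the coreceptors Lrp5 and Lrp6 on the receiving cell. Without ligand, a destruction complex built on Axin and Apc lets Gsk3b phosphorylate β-catenin, the product of Ctnnb1, for degradation. With ligand, Dishevelled proteins disable that complex, and β-catenin enters the nucleus and joins TCF/LEF factors at target genes. In the developing kidney, Wnt9b from the ureteric bud acts on the nephron progenitors and induces Wnt4 in the cells that go on to form a nephron, while Wnt11 marks the tips of the bud.

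Promoter peaks were found at receptor and intracellular genes and at none of the ligand genes. Of the 46 genes, 14 (30.4%) had a promoter peak in replicate 1 and 11 (23.9%) in replicate 2, a mean of 27.2% ± 4.61 (SD, n = 2 lists). Among all protein-coding genes, 20.3% had one in replicate 1 and 14.7% in replicate 2. A shared peak was found at 9 of the 46 (19.6%), beside 11.3% of all protein-coding genes, and a peak in either list at 16 (34.8%), beside 23.5%. The 16 were 7 receptor genes and 9 intracellular genes, and none was a ligand or a secreted modulator.

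Promoters rich in CpG dinucleotides carried Eya1 peaks far more often than others, and Wnt pathway promoters were CpG-rich. In the CpG-richest 1-kb window on a TSS, the 46 genes held a median of 92 CpGs, against 50 for all protein-coding genes. Across 10 classes of CpG count, the share of other protein-coding genes with a peak in either list ran from 0.052% in the lowest class to 63.8% in the highest, which spanned 101 to 181 CpGs. The share of other genes in the CpG class of each member was therefore averaged over the members and is called the CpG-standardised share. For all 46 genes it was 45.3% for a peak in either list, so that their own 34.8% lay 10.5 percentage points below it. With classes of the observed over expected CpG ratio in place of the CpG count, the difference was -5.19 points. By list, the members stood at 30.4% against 39.4% in replicate 1, at 23.9% against 30.2% in replicate 2, and at 19.6% against 24% for shared peaks. By role, the standardised count in either list was 6.1 beside 7 receptors with a peak, 6.64 beside 9 intracellular genes and 7.31 beside 0 ligands. The genes are a fixed list and not a sample, so no interval was computed over them.

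**Figure D1:**
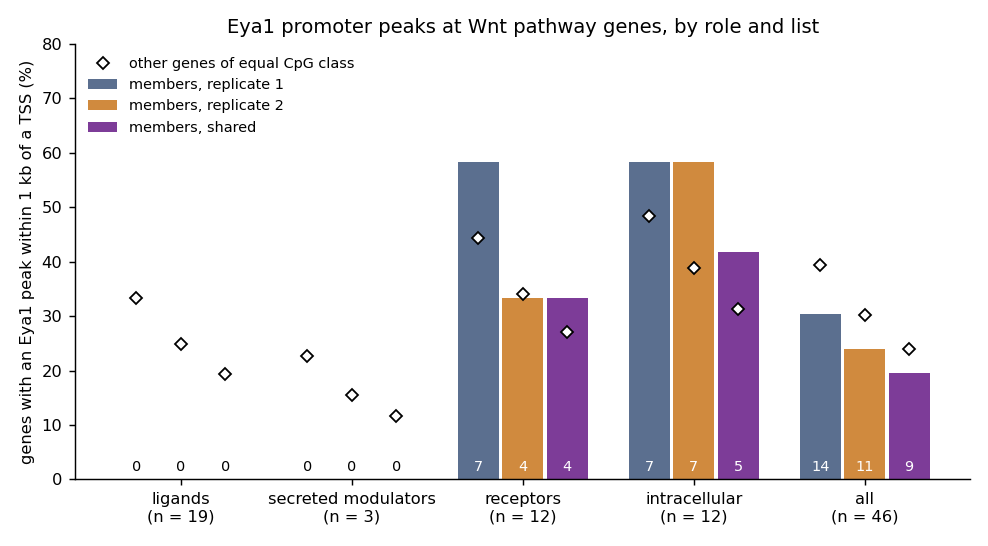
Bars show the percentage of Wnt pathway genes in each role with an Eya1 peak within 1 kb of a TSS, in replicate 1, in replicate 2 and shared by both, with the number of genes at the foot of each bar. Open diamonds show the percentage of other protein-coding genes of equal CpG class. The 19 ligands and 3 secreted modulators stand at 0 in each list, and the intracellular bars of 58.3%, 58.3% and 41.7% stand above their diamonds.

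None of the 19 Wnt genes had a promoter peak in replicate 1, in replicate 2 or in both. Other genes of the same CpG classes had one in 33.3% of cases in replicate 1, 24.8% in replicate 2 and 38.5% in either list, which over 19 genes comes to 7.31 genes. Many of the ligand promoters were CpG-rich, and 8 of them (Wnt2b, Wnt3a, Wnt4, Wnt5b, Wnt6, Wnt7a, Wnt7b and Wnt9a) lay in the highest pair of CpG classes, where 57.4% of 4370 other genes had a peak in either list. In those same classes 13 of 19 receptor and intracellular genes (68.4%) had one. Wnt4, which drives the conversion of induced mesenchyme to epithelium, held 137 CpGs, Wnt9a held 131 and Wnt5b held 130, more than any receptor or intracellular gene but Lrp6 with 151 and Ctnnb1 with 145. At the other end, Wnt8a with 19 CpGs, Wnt8b with 21 and Wnt10a with 37 lay in classes where few genes carried a peak. The number of annotated start sites had a median of 2 a gene at the ligands, 1 at the receptors and 5.5 at the intracellular genes. When the CpG classes were taken within classes of start-site number, an alternative chosen after seeing the data, the difference of the ligands from the standardised share was -34.1 points, against -38.5 points by CpG class alone.

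The bases before the start sites of the kidney ligands show how CpG-rich a promoter without an Eya1 peak could be. The 150 bases before the TSS of Wnt4, Wnt9b and Wnt11 are given 5′ to 3′ on the strand of the gene, with CpGs in capitals, from the mm10 assembly of RefSeq (GRCm38.p6).
Wnt4, chr4:137277339-137277488, plus strand, 20 CpGs: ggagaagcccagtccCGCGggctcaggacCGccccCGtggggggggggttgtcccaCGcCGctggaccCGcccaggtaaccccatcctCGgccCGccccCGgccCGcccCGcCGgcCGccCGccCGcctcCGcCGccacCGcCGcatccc
Wnt9b, chr11:103749822-103749971, minus strand, 18 CpGs: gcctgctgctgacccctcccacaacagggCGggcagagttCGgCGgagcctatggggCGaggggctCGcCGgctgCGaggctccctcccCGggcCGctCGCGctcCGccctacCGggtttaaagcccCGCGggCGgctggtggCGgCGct
Wnt11, chr7:98834962-98835111, plus strand, 28 CpGs: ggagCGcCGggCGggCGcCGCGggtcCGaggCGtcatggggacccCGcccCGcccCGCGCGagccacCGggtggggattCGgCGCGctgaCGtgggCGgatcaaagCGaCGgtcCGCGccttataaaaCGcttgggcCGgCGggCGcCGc
The nearest peak of either list lay 79.2 kb from the Wnt4 start site, 51.7 kb from that of Wnt9b and 292352 bp from a start site of Wnt11.

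**Figure D2:**
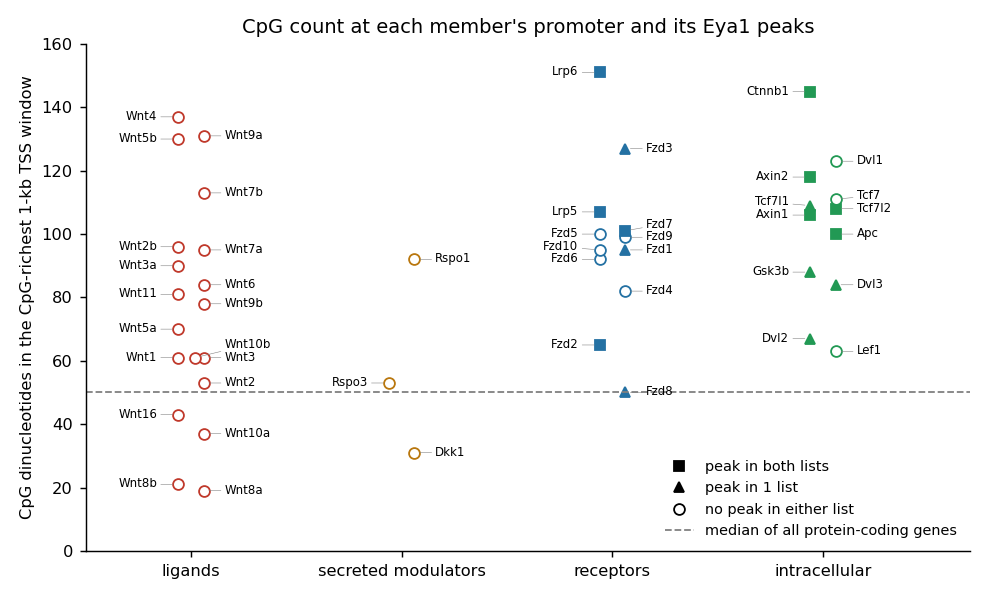
Each point is 1 Wnt pathway gene, placed by the number of CpG dinucleotides in its CpG-richest 1-kb TSS window (vertical axis) and by role (horizontal axis). Squares mark a promoter peak in both lists, triangles a peak in 1 list and open circles none. Ligands at 137, 131 and 130 CpGs have no peak, while receptors at 65 (Fzd2) and 50 (Fzd8) do.

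Around the ligand genes, the closest peaks were those of Wnt5b, at 11.7 kb in replicate 1 and 12.6 kb in replicate 2, which did not overlap each other. Both lay inside the Wnt5b gene, but within 1 kb of a TSS of Fbxl14, an F-box gene that starts within it. Over the 19 ligands the distance to the nearest peak of either list had a median of 76 kb and reached 2238 kb at Wnt16. Within 100 kb, 14 of the 19 had a peak, beside 58.3% of all protein-coding genes, so the ligands were not unusually remote at this range. The 5 ligands without one were Wnt2, Wnt5a, Wnt7a, Wnt11 and Wnt16. The other 14 shared 17 distinct replicate 1 peaks and 16 distinct replicate 2 peaks between 1 and 100 kb, of which 15 and 12 lay within 1 kb of the TSS of some other protein-coding gene. These included Cdc42 for Wnt4, Arf1 for Wnt3a and Wnt9a, Gosr2 for Wnt3 and Wnt9b, and Prkag1 and Kmt2d for Wnt1 and Wnt10b. Neighbouring ligands are not separate observations here, since Wnt6 and Wnt10a start 9.08 kb apart, Wnt1 and Wnt10b 11.7 kb, Wnt3a and Wnt9a 16.2 kb and Wnt3 and Wnt9b 24.3 kb, and so they share these peaks.

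A few of the peaks near ligands stood away from promoters and held a match to RE1, the element bound by the repressor REST. Matches with at most 2 mismatches were counted on both strands, and they were found in 2 of 2 replicate 1 peaks and 3 of 4 replicate 2 peaks near ligands that lay over 1 kb from a protein-coding TSS. Of all peaks so placed, 55.9% of 288 in replicate 1 and 70.2% of 699 in replicate 2 held a match. The best match was at a replicate 2 peak 75.7 kb from Wnt6 and 64.8 kb from Wnt10a, without mismatch, where the closest protein-coding TSS was that of Cdk5r2, a neuronal regulator of Cdk5. A peak found in both lists 92.5 kb (replicate 1) and 93 kb (replicate 2) downstream of Wnt9b held a match with 1 mismatch, and its closest protein-coding TSS was that of Rprml, 7.02 kb away from the replicate 1 peak. Both elements are given 5′ to 3′ with the RE1 match in capitals and 10 bases to each side.
Wnt6 and Wnt10a locus, chr1:74858234-74858250, minus strand: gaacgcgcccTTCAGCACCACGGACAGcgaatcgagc
Wnt9b locus, chr11:103656723-103656739, minus strand: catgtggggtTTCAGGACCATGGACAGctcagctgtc
A match is a property of the letters and not a measurement of REST binding, and a distance does not assign a peak to a gene.

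The secreted modulators resembled the ligands in their counts. Dkk1, which blocks Lrp5 and Lrp6, and Rspo1 and Rspo3, R-spondins that strengthen the response to Wnt, had no promoter peak in either list, against a CpG-standardised 26.4% or 0.793 of 3 genes, a number too small to set apart from 0. Their nearest peaks lay 77.7 kb away for Rspo1, 142 kb for Rspo3 and 518 kb for Dkk1.

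Of the 12 receptor genes, 7 had a promoter peak in replicate 1 (58.3%) and 4 in replicate 2 (33.3%), and those 4 were shared. The CpG-standardised shares were 44.3% and 34%, so the receptors stood 14.1 points above in replicate 1 and 0.66 points below in replicate 2. The mean share over lists was 45.8% ± 17.7 (SD, n = 2). The difference from the standardised share changed sign between the lists, with an SD of 10.4 points (n = 2). Peaks of both replicates were present at Fzd2, Fzd7, Lrp5 and Lrp6. Fzd1, Fzd3 and Fzd8 had a peak in replicate 1 alone, and Fzd4, Fzd5, Fzd6, Fzd9 and Fzd10 had none. The receptors without a peak held 82 to 100 CpGs and were not CpG-poor.

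Lrp5 and Lrp6 encode the coreceptors that recruit Axin to the membrane. At Lrp6, the replicate 1 peak (chr6:134565642-134566936, 1295 bp) covered a TSS just inside the 5′ end of the gene, but not that end itself. It ran 1271 bp past that TSS. Along the same promoter lay 3 replicate 2 peaks (chr6:134566254-134566381, chr6:134566462-134566732 and chr6:134566983-134567190), the last of them upstream of the replicate 1 interval. At Lrp5 the intervals of 728 bp in replicate 1 (chr19:3685738-3686465) and 337 bp in replicate 2 (chr19:3686128-3686464) both began just inside the gene, 91 bp and 92 bp past the nearest TSS. These coreceptor peaks held exon and intron sequence, with exonic bases making up 15.2% to 33.2% of each interval that touched an exon.

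The Frizzled peaks had another shape. Fzd1, Fzd2, Fzd7, Fzd8, Fzd9 and Fzd10 are annotated with a single exon, and at the 4 of them with a peak the replicate 1 interval ran over the transcribed body. Of 1312 other protein-coding genes with a single exon, 6.55% had a promoter peak in replicate 1 and 4.8% in replicate 2, without regard to CpG content. These Frizzled genes lay in CpG classes where 25.1% to 63.8% of other genes had a peak in either list, so the single-exon share is not a matched comparison. At Fzd7, a receptor expressed in progenitor cells of many tissues, the interval was 3607 bp (chr1:59482056-59485662), wider than 99.5% of the replicate 1 list, and it covered 100% of the coding sequence. The Fzd2 interval was 2210 bp (chr11:102604326-102606535) and also covered 100% of the coding sequence. At Fzd1 (chr5:4756411-4758311, 1901 bp) and Fzd8 (chr18:9212139-9213964, 1826 bp) it covered 60.7% and 50.9%. Fzd3, a receptor with several exons that acts in planar polarity, had a narrower replicate 1 peak of 879 bp (chr14:65261880-65262758), which covered none of its coding sequence.

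The replicate 2 intervals at these genes were short and lay within those of replicate 1. The Fzd7 peak (chr1:59482433-59482675, 243 bp) began 9 bp past the TSS, and the Fzd2 peak (chr11:102604970-102605109, 140 bp) lay 574 bp past it, inside the coding sequence. Peaks were wider in replicate 1 throughout, with a median width of 1069 bp over the whole list against 188 bp in replicate 2, so widths were compared within a list and not between lists.

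**Figure D3:**
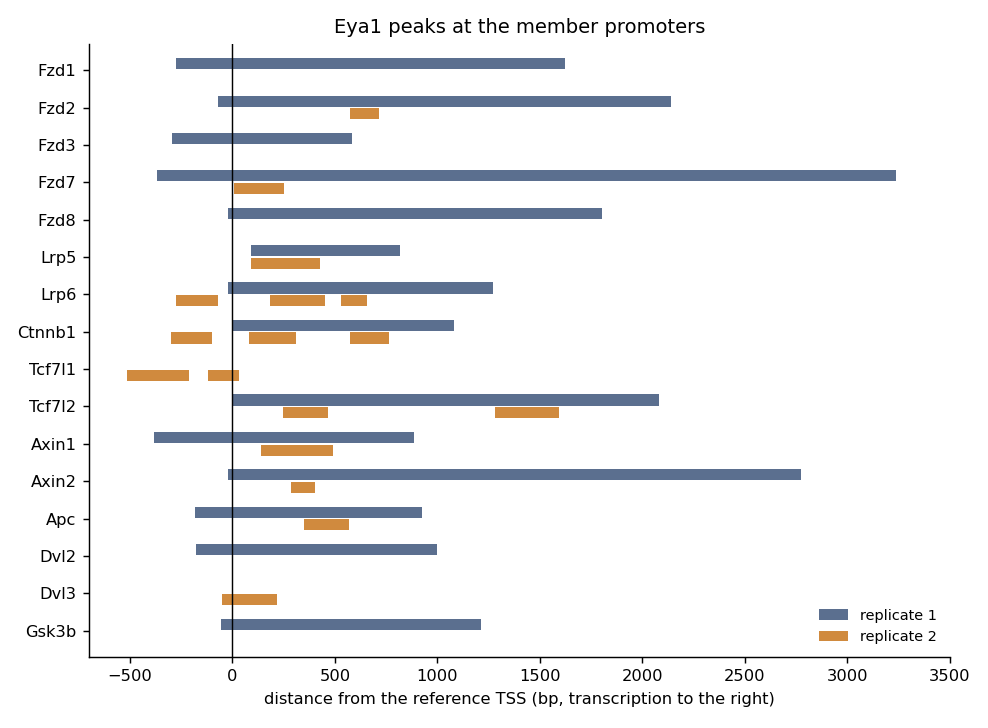
Intervals of the 16 Wnt pathway genes with a promoter peak are drawn against distance in bp from 1 annotated TSS of each gene (the one nearest to its first listed peak), with transcription to the right, for replicate 1 (upper bar) and replicate 2 (lower bar). Replicate 1 intervals extend into the genes, furthest at Fzd7 and Axin2, and the replicate 2 intervals are short and mostly lie within them.

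Of the 12 intracellular components, 7 had a promoter peak in each list (58.3%) and 9 in either (75%). Their share equalled that of the receptors in replicate 1 and was above it in replicate 2 and in either list. The CpG-standardised shares were 48.4% in replicate 1, 38.8% in replicate 2 and 55.4% in either list, so that the genes stood 9.96, 19.5 and 19.6 points above. Shared peaks were found at 5 (41.7%, standardised 31.3%), namely Ctnnb1, Tcf7l2, Axin1, Axin2 and Apc. Dvl2 and Gsk3b had a peak in replicate 1 alone, Tcf7l1 and Dvl3 in replicate 2 alone, and Lef1, Tcf7 and Dvl1 had none. Equal totals in the lists thus came from genes that overlapped only in part.

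The scaffolds of the destruction complex and its substrate were among the shared genes. Ctnnb1, which encodes β-catenin, had a replicate 1 peak of 1082 bp (chr9:120933820-120934901) and 3 replicate 2 peaks (chr9:120933519-120933716, chr9:120933897-120934129 and chr9:120934393-120934584) around start sites that lie several kilobases inside the 5′ end of the annotated gene. Axin1, the limiting scaffold, had a replicate 1 peak of 1270 bp (chr17:26138307-26139576) that held its 351-bp replicate 2 peak (chr17:26138827-26139177).

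At Axin2, a feedback inhibitor that Wnt signalling itself induces in many tissues, the replicate 1 interval was 2798 bp (chr11:108920327-108923124). It was wider than 98.3% of its list and ran from 22 bp before a TSS to 2775 bp past it, over exon and intron. This interval held 7 matches to the TCF/LEF motif, counted as CTTTGAT or CTTTGAA on either strand. No other of the 3989 replicate 1 peaks at protein-coding promoters held as many, and the median of those peaks was 0, as it was among the 358 that were 2 kb or wider. The 7 matches are given 5′ to 3′ on the strand of the match, with the motif in capitals and 10 bases to each side. Offsets count from the TSS nearest to the interval.
Site 1, chr11:108920427-108920433, plus strand: gccggctgcgCTTTGATaaggtcctgg
Site 2, chr11:108920790-108920796, plus strand: cggctcgcgcCTTTGAAgtgcacagtt
Site 3, chr11:108921232-108921238, plus strand: ggccggcgcgCTTTGATgtgcggggcg
Site 4, chr11:108921252-108921258, plus strand: cggggcggcgCTTTGAAgttggcaggc
Site 5, chr11:108922416-108922422, minus strand: aacttagaggCTTTGATcttcaaactt
Site 6, chr11:108922972-108922978, plus strand: cagatttcgcCTTTGAAaaagctgcgt
Site 7, chr11:108923072-108923078, plus strand: tactttcttgCTTTGATgttgggtaga
Site 1 lay in an exon, 78 bp past the TSS, and the other 6 lay in the intron between 441 and 2723 bp past it. The replicate 2 peak at Axin2 was 120 bp (chr11:108920634-108920753) and held none of them.

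Apc, the tumour suppressor that binds Axin and β-catenin, had a replicate 1 peak of 1109 bp (chr18:34220741-34221849) and a replicate 2 peak of 217 bp (chr18:34221275-34221491), which also lay within 1 kb of a TSS of Gm10548. Gsk3b, the kinase of the complex, had a 1268-bp peak in replicate 1 (chr16:38088945-38090212), of which 95.6% was exonic.

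Across the 46 promoters the TCF/LEF motif was no more frequent than elsewhere. It was present in 11 of the 46 windows of 1 kb (23.9%), against 23% of all protein-coding windows, at 5 of the 16 genes with a peak (Fzd1, Fzd7, Lrp6, Tcf7l2 and Axin2) and at 6 of the 30 without (Wnt5a, Wnt8a, Wnt11, Fzd10, Tcf7 and Dkk1). Within the peaks themselves, 4 of 14 replicate 1 intervals (28.6%) held it against 17.6% of all promoter peaks, and 1 of 17 replicate 2 intervals (5.88%) against 1.9%. These shares were not matched for width. In replicate 1, 28.6% of member intervals were 2 kb or wider, against 8.97% of all promoter peaks, and a wider interval has more room for a match. The Axin2 count stood alone among these genes, where the other 3 replicate 1 peaks with the motif (at Fzd7, Ctnnb1 and Tcf7l2) held 1 match each.

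The other motifs searched were the SP box, the SIX2 motif and RE1. The SP box GGGCGG was present in 42 of the 46 windows (91.3%), against 64.9% of all. It holds a CpG and the member windows were CpG-rich, so these window shares are not a CpG-matched comparison. Within peaks, it was in all 14 replicate 1 peaks of the members, where 93% of all promoter peaks held it. It was in 8 of their 17 replicate 2 peaks (47.1%), where 55.4% did. The motif of SIX2, the homeodomain partner of Eya1 in nephron progenitors, was in none of the 46 windows, against 0.725% of all windows. So rare a motif would most often be missing from 46 windows, and no lack is read from this. An RE1 match was in 4 of 46 windows (8.7%, at Wnt1, Wnt3a, Fzd4 and Fzd8), against 11.1%, and in 1 of the 14 replicate 1 promoter peaks, that of Fzd8, against 14.7% of all promoter peaks. SP and RE1 matches could overlap each other, and a window without a match says only that these letters were not in it.

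The TCF/LEF genes themselves, which encode the nuclear partners of β-catenin, were unequal. Tcf7l2 had a replicate 1 peak of 2087 bp (chr19:55742339-55744425) and 2 replicate 2 peaks inside it (chr19:55742587-55742810 and chr19:55743621-55743937). Tcf7l1, most often a repressor, had a pair of replicate 2 peaks (chr6:72788565-72788716 and chr6:72788810-72789115), while the closest replicate 1 peak lay 109209 bp away. Lef1 and Tcf7, the family members that Wnt signalling can itself induce, had no promoter peak, with 63 and 111 CpGs and nearest peaks at 157624 bp and 49605 bp. Tcf7 thus matched Tcf7l1, with 109 CpGs, and Tcf7l2, with 108, in CpG content but not in peaks.

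Among the replicate 2 peaks at shared intracellular genes, 3 short ones that lay clear of annotated untranslated regions show what the shared intervals look like. They are given 5′ to 3′ on the strand of the gene, with CpGs in capitals, from the same assembly.
Axin2, chr11:108920634-108920753, plus strand, intron, 15 CpGs in 120 bp: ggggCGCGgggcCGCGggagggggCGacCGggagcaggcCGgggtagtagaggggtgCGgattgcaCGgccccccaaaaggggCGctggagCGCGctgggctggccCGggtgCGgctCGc
Ctnnb1, chr9:120934393-120934584, plus strand, intron, 15 CpGs in 192 bp: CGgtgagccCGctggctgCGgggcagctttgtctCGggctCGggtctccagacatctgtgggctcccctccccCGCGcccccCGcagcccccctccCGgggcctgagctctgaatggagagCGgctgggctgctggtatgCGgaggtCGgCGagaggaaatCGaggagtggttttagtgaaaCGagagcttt
Tcf7l2, chr19:55742587-55742810, plus strand, coding exon and intron, 29 CpGs in 224 bp: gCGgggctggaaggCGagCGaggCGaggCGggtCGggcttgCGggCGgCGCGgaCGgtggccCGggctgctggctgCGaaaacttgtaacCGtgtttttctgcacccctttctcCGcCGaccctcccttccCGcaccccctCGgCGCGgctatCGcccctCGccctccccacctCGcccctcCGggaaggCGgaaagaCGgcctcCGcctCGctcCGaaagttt
They differed in GC content, at 80% for Axin2, 71.4% for Tcf7l2 and 67.2% for Ctnnb1, and none held a TCF/LEF, SIX2 or RE1 match.

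The Dishevelled genes, which pass the signal from Frizzled to the destruction complex, each gave a different answer. Dvl2 had a 1177-bp replicate 1 peak over its TSS (chr11:70000417-70001593), while the closest replicate 2 peak lay 3.48 kb away at the promoter of Phf23. Dvl3 had a 268-bp replicate 2 peak (chr16:20517137-20517404), also within 1 kb of a TSS of Gm16618, and no replicate 1 peak within 134148 bp. Dvl1 had 123 CpGs and no promoter peak, but a peak of each list started at the same base 56 bp past the annotated end of the gene and 4.79 kb from its nearest TSS (chr4:155859359-155860066 in replicate 1 and chr4:155859359-155859700 in replicate 2), overlapping the taste receptor gene Tas1r3. The replicate 1 interval held 5 RE1 matches and the replicate 2 interval 4 of them, of which the closest to the consensus had 1 mismatch and is given with the match in capitals.
Dvl1 3′ side, chr4:155859535-155859551, minus strand: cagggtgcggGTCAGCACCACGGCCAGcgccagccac

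The 1-kb limit fell in a wide gap. Just inside it, the member whose nearest peak in a list lay farthest from a TSS was Fzd2 in replicate 2, at 574 bp, and just outside it were Dvl2 in replicate 2 at 3.48 kb and Dvl1 at 4.79 kb in both lists. With either list, 16 members had a peak within 1 kb, 17 within 5 kb and 17 within 10 kb, while the share of all protein-coding genes rose from 23.5% to 25.3% and 28%. At 100 kb, 36 of the 46 members had a peak, among them 14 of the 19 ligands, beside 58.3% of all protein-coding genes.

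**Figure D4:**
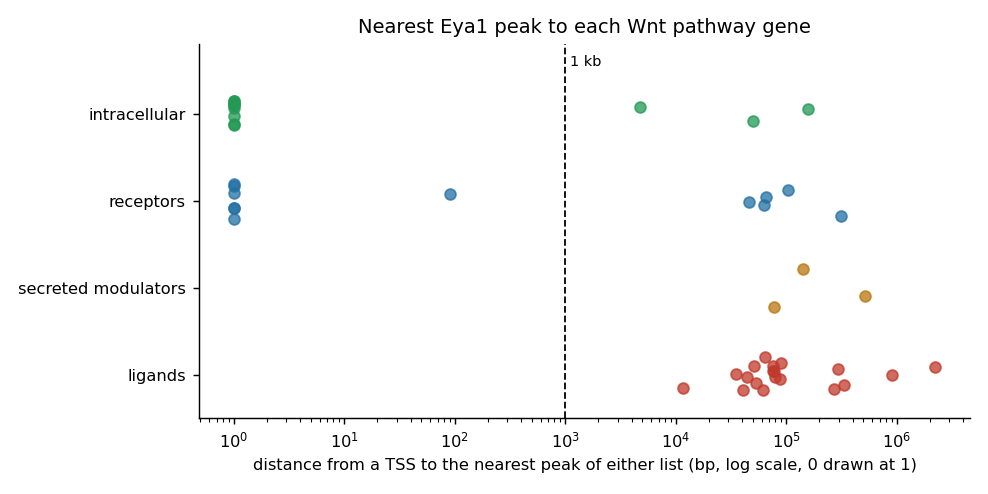
Each point is 1 Wnt pathway gene, placed by the distance in bp from any of its TSSs to the nearest Eya1 peak of either list (horizontal axis, log scale, with a distance of 0 drawn at 1) and by role. The dashed line marks 1 kb. No point lies between the receptor at 91 bp (Lrp5) and Dvl1 at 4787 bp, and the ligands begin at 11687 bp.

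At the 9 shared genes, the short replicate 2 intervals fell mostly inside the longer ones of replicate 1. They held 9 replicate 1 peaks and 14 replicate 2 peaks, and 12 of the 14 lay wholly inside a replicate 1 interval. The overlap took up a small part of the replicate 1 interval, and with at least 50% of each peak covered by the other, 0 of the 9 genes kept a shared peak. The 14 replicate 1 intervals at members had a median width of 1282.5 bp, against 1100 bp for all 3989 promoter peaks, and 4 of them (28.6%, at Fzd2, Fzd7, Tcf7l2 and Axin2) were 2 kb or wider, against 8.97%. All 14 had their midpoint downstream of the nearest TSS, against 77.3% of promoter peaks, and 12 of the 14 covered a TSS (85.7%, against 91.5%). In replicate 2, the 17 intervals had a median of 224 bp against 199 bp, and 12 (70.6%) had their midpoint downstream, against 79.4%. Where TSSs were equally near, the one of lowest coordinate was used, which is the most upstream only on the plus strand. Member peaks were always measured from the member, and other peaks from 1 of the nearest genes. The midpoint shares of members and of all promoter peaks are therefore not like measures.

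A second list of 68 further pathway genes, all of them matched to the annotation, is described by role. Of the 68, 23 (33.8%) had a peak in either replicate, beside 23.5% of all protein-coding genes and a CpG-standardised 41.3%. A shared peak was found at 14 of the 68, beside 11.3% of all protein-coding genes. No CpG-standardised share was computed for the shared peaks of this list. None of the 2 genes for Wnt secretion (Porcn and Wls) and 1 of 12 secreted antagonists and modulators had a peak (8.33%, standardised 28.6%), the exception being Sfrp1 in replicate 2. Of the destruction complex and its regulators, 7 of 13 had one (53.8%, standardised 46.4%), with shared peaks at Gsk3a and Csnk1a1, kinases that act on β-catenin, at Csnk1d and Fbxw11, at Tnks2, which marks Axin for degradation, and at Usp7. Of the nuclear partners, 5 of 10 had one (50%, standardised 47.6%), with shared peaks at Bcl9l and Pygo1, coactivators of β-catenin, and at the corepressors Tle1 and Tle3.

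The other receptors and turnover factors had 4 of 11 (36.4%, standardised 40.3%), with shared peaks at Ror2, Ryk and Ptk7, which are receptors of the branches that do not use β-catenin. The planar polarity genes had 5 of 12 (41.7%, standardised 47.6%), with a shared peak at Celsr3. Among 12 genes known as targets of Wnt signalling in various tissues, Myc had a promoter peak in replicate 1 and the others (Ccnd1, Sp5, Cdx1, Lgr5, Notum, Nkd1, Rnf43, Pax8, Fgf8, Lhx1 and Cited1) had none. That made 8.33% against a standardised 41.6%. The paper describes Eya1 at regions flanking Ccnd1, and the 1-kb rule counts only peaks near a TSS. Axin2, Lef1 and Tcf7, which Wnt signalling can also induce, were among the 46 members and not in these 12. Axin2 had a shared peak and Lef1 and Tcf7 had no promoter peak, so the share depends on which targets are listed. Sfrp1 and Myc were named after their values were seen. Some genes of this list stood under more than 1 role.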

How the data were processed

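Per the study's methods, the authors used Bowtie with its defaults for mm10 alignment and MACS, with several P cutoffs and input or IgG as control, for the deposited peaks, keeping common ones, whereas the submitters' processing notes name HISAT2. Each deposited list gives only chromosome, start and end. The cutoff and control of each list are not given in the sources used here, so depth and peak strength are unknown. Samples were grouped by title.

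Gene models were GENCODE M21 on chromosomes 1 to 19, X and Y, which set aside 11 replicate 2 peaks on other sequences. Sequence came from RefSeq GRCm38.p6, the assembly of mm10, and no peak passed a chromosome end. Of the 46 members, 33 had an entry in the RefSeq promoter table, and sequence was printed only for these. CpG classes, overlaps and distances were computed with Python 3.11.15 and numpy 2.4.6, checked with bedtools 2.31.1 and on simulated peaks. The members and lists were chosen with earlier results of these data known. No test was made, since there are 2 lists of 1 group. Every member is named, and of the second list those with a shared peak. Alternatives covered the window, TSS set, peak assignment, overlap, CpG measure and classes, and either list alone.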

Additional observations from a re-analysis of the deposited data

How the results depend on the processing

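With a 3-kb window the 19 ligands and 3 secreted modulators still had 0 promoter peaks, since their nearest peaks lay at 11.7 kb and 77.7 kb. The other alternatives for these groups could only drop peaks or add genes already at 0, so those counts were fixed in advance. Over all members, the count in either list ran from 15 to 16. These alternatives were windows of 500 bp or 3 kb, peak midpoints, other TSS sets and nearest-gene assignment. With 1 list left out, that count was 11 to 14. The receptor count was 4 without replicate 1 and 7 without replicate 2, and its difference from the CpG-standardised share changed sign, to -0.66 points without replicate 1. Shared members fell from 9 to 0 when each peak had to cover at least 50% of the other, as the replicate 2 intervals are short. The difference over all members, -10.5 points, was -5.19 with CpG observed over expected, -7.42 with CpG class taken within classes of TSS number, an alternative chosen after seeing the data, and -6.33 to -8.97 with 1 list left out. The intracellular difference ran from 9.96 to 28 points. No other direction changed. No paired analysis was possible because the series has 1 group of 2 lists. Without read counts or scores, a gene with no peak cannot be told from one below the caller's cutoff.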
